A study of Macaca mulatta with 4 samples.

Results

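Thyroid hormone acts on a cell in steps that separate genes carry out, and these genes were followed here across the cell types of the fetal rhesus cerebellum. The set was chosen by name and held 7 genes: the receptors THRA and THRB, the transporters SLC16A10 and SLCO1C1, the deiodinases DIO2 and DIO3, and KLF9, a transcription factor that the hormone induces. Of these 7, 5 had a row in the deposited list of 30807 genes, 4 by symbol and SLC16A10 by its gene identifier. A further row, which its gene identifier also assigns to DIO2, had 0 UMIs in the nuclei of every library and was not used. DIO3 and KLF9 were not analysed here.

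As background, the thyroid secretes mainly thyroxine. Membrane transporters carry it into cells, DIO2 converts it to triiodothyronine, and DIO3 inactivates both. Triiodothyronine binds the receptors encoded by THRA and THRB, which sit on DNA with retinoid X receptors and repress or activate their targets. In the cerebellum the hormone is best known for its part in the migration of granule cells and the growth of Purkinje cell dendrites, and glia are known as the main site of its activation.

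Nuclei came from flash-frozen cerebellum of 4 rhesus macaque fetuses, 1 library per fetus, on the 10x Genomics platform. A female and a male Control fetus had no intervention and were 130 days of gestation, and a male and a female LPS fetus, 133 and 131 days old, had received 1 mg of LPS, a bacterial endotoxin, into the amniotic fluid 5 days before. LPS and the 1 to 3 further days of gestation cannot be told apart. The libraries are called Control female, Control male, LPS male and LPS female, and values by library are given in that order.

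Barcodes with 500 or more genes were taken as nuclei and numbered 9256, 8621, 7805 and 6905. They held 3743, 1678, 1559 and 2359 unique molecular identifiers (UMIs, single captured RNA molecules) of the 5 genes. Total UMIs ranged from 34282015 to 61665690 per library and median UMIs per nucleus from 1882 to 4506, with both male libraries shallower per nucleus and lower in mitochondrial RNA than both female ones. The LPS male library stood apart in free RNA: 38.7% of its UMIs lay in nuclei, against 58.7 to 74.1% elsewhere, and it held 1873 of 2393 nuclei of a low-UMI cluster that stayed unnamed. Pairs of libraries shared 16 to 22 barcodes, 111 in all. Levels are given as CPM, the UMIs of a gene in a class and library scaled to a common total, and are compared between classes of a gene, not between genes. Class names stand for nuclei like that class by its markers. The clusters were made without the 7 genes or the related genes counted below, and no marker list holds one of them. In each named cluster at least 3 markers were raised, for example 8 of 8 for Purkinje cells and 7 of 7 for Bergmann glia, although CLDN5, a defining endothelial gene, had only 6 UMIs in endothelial cells.

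THRB, the beta receptor, was high in astroglia, oligodendrocyte precursor cells and Purkinje cells and low in every granule stage. In Bergmann glia, the radial astroglia along which granule cells migrate, its level was 205, 87.3, 134 and 194 CPM, a mean of 155 ± 55.1 (SD, n = 4 libraries). In the other astrocytes it was 158, 46.4, 79.1 and 126 CPM, and in proliferating glia 124, 95.2, 116 and 140 CPM. Over the whole granule lineage it was 5.43, 4.52, 4.11 and 3.31 CPM. The lowest astroglial library was therefore well above the highest granule library, and no library overlapped. Astroglia (Bergmann glia and other astrocytes together) held 42.6 to 62.3% of the THRB UMIs of a library.

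The granule level of THRB was below that of empty droplets, which held 11.5, 36.6, 23.3 and 5.13 CPM, and free RNA was expected to give 124 of its 347 UMIs. Counted per nucleus, 38.4% of Bergmann glia and 1.39% of granule nuclei had a THRB UMI, at median depths of 3860 and 3257 UMIs. After thinning each nucleus to 1000 UMIs, which left out 39 and 868 nuclei, the shares were 13.7% and 0.464%.

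Purkinje cells, the output neurons of the cerebellar cortex, were the neurons with the most THRB. Their level was 113, 84, 70.5 and 80.3 CPM, with exact 95% Poisson intervals (counting error only) of 87.9 to 142, 57.8 to 118, 32.3 to 134 and 56.6 to 111. These rested on 70, 33, 9 and 37 UMIs from 32, 56, 18 and 25 nuclei. The 4 intervals overlapped each other and lay above every granule library. Other neurons had less: PAX2 interneurons, immature inhibitory neurons, had a mean of 14.4 ± 7.18 CPM and Golgi cells 4.84 ± 4.8 CPM.

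Outside neurons and astroglia, THRB was 90, 57.8, 95.8 and 102 CPM in fibroblasts. In endothelial cells it was 65.9, 107, 65.3 and 67.5 CPM. Choroid or ependymal cells, which make or border the cerebrospinal fluid, had the highest mean, 594 ± 367 CPM, on 91 UMIs. That class held only 40 nuclei, 2 and 3 of them in the Control libraries, and the LPS male library at 75.8 CPM lay far under the others at 834, 871 and 594. When the 22 classes were put in order of mean THRB, each class overlapped the next in its range over libraries, so no step between neighbours exceeded the spread.

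**Figure D1:**
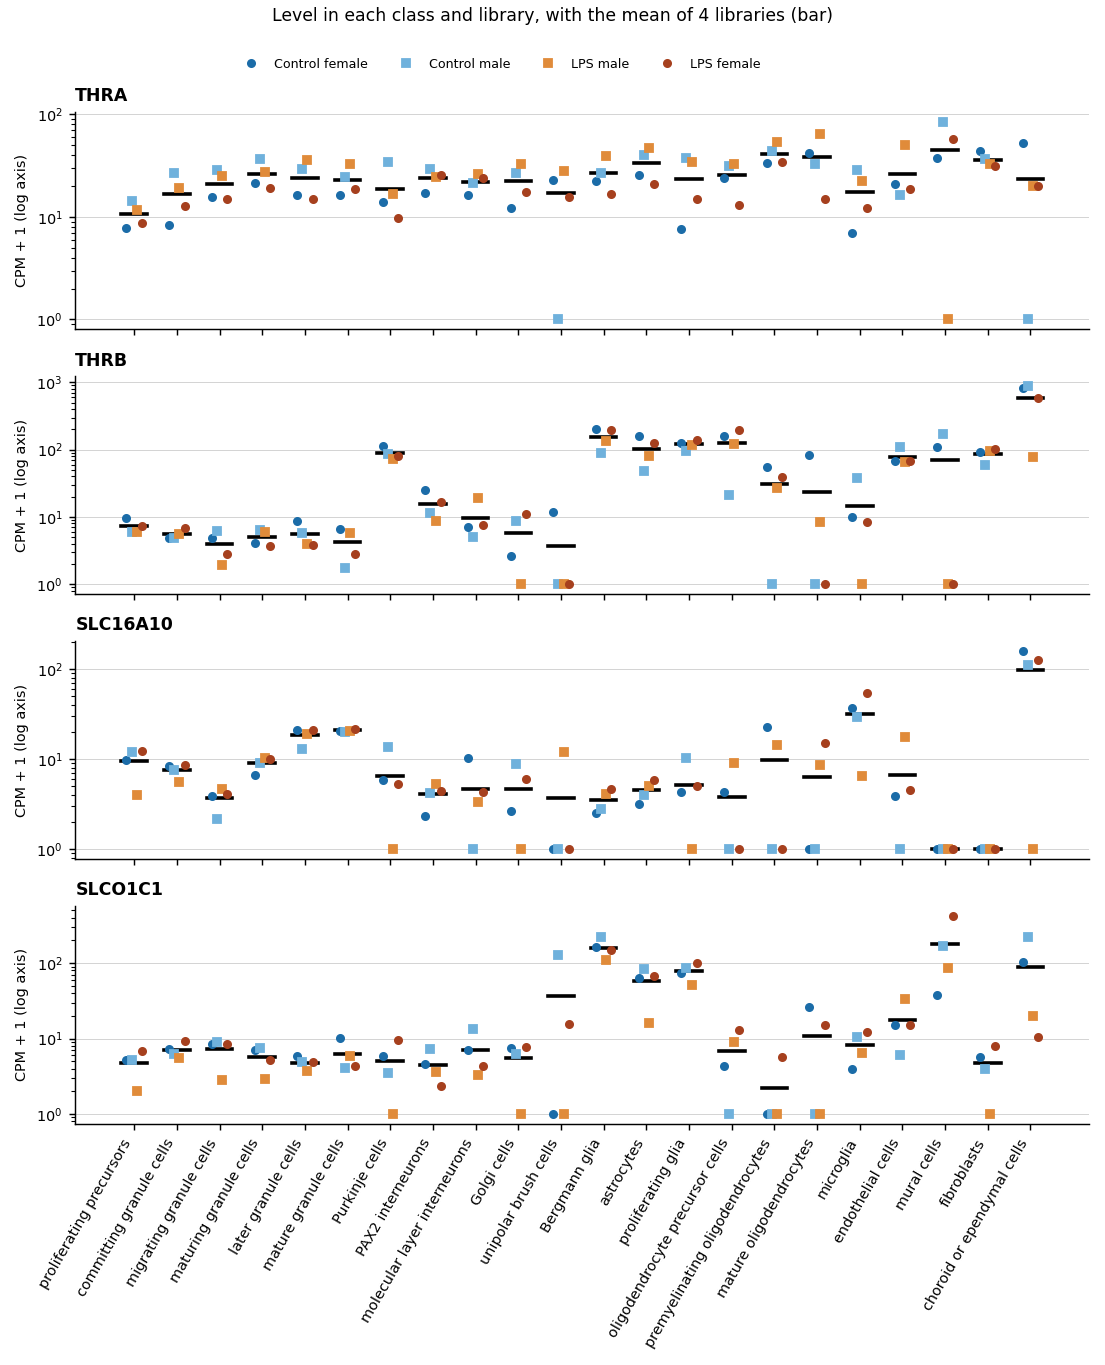
Level of THRA, THRB, SLC16A10 and SLCO1C1 in 22 classes, as CPM + 1 on a log axis. Points are the 4 libraries (circles female, squares male) and bars their mean. THRB runs from 0.766 to 5.64 CPM in mature granule cells and from 87.3 to 205 CPM in Bergmann glia, while THRA runs from 15.5 to 31.5 CPM and from 15.9 to 38.7 CPM in the same classes.

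THRB was also lower in later than in early cells of the oligodendrocyte lineage, the myelin-forming cells. Oligodendrocyte precursor cells had 161, 20.5, 120 and 198 CPM, the Control male value resting on 2 UMIs. Premyelinating oligodendrocytes had 54, 0, 26.4 and 38.2 CPM and mature oligodendrocytes 82.6, 0, 7.52 and 0 CPM. The mature stage was thin, with 12 UMIs in 84 nuclei, 58 of them from the LPS male library. Microglia had 8.98, 37.3, 0 and 7.52 CPM of THRB on 13 UMIs.

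THRA, the alpha receptor, was found in every class at a more even level. Over the granule lineage it was 15, 27.8, 28.3 and 14.5 CPM, in astroglia 23.2, 33.9, 42.4 and 18 CPM, and in Purkinje cells 12.9, 33.1, 15.7 and 8.69 CPM. The order of libraries was much the same in the first 2 of these: both male libraries were higher than both female ones, in Control and LPS alike. Sex, depth and mitochondrial RNA split the libraries the same way and cannot be told apart. Empty droplets held 30.2, 25.4, 19.4 and 23.1 CPM of THRA. The granule and astroglial levels lay below these in both female libraries and above them in both male ones. Free RNA was expected to give 161 of the 1482 granule UMIs and 22.4 of the 364 in astroglia. Premyelinating oligodendrocytes had a mean of 40.4 ± 9.52 CPM and fibroblasts one of 35.2 ± 5.36. THRA overlaps NR1D1 on the opposite strand, and the sources used here do not say whether reads were counted by strand, so some of these counts are uncertain. NR1D1 itself had 6.33, 2.01, 2.2 and 7.43 CPM in the granule lineage, so both female libraries were the higher ones for NR1D1 and the lower ones for THRA.

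Over the granule stages, THRA rose. Proliferating precursors, the dividing cells of the external granular layer, had 6.8, 13.3, 10.8 and 7.67 CPM. Committing granule cells had a mean of 15.8 ± 8.17, migrating ones 20 ± 6.86, maturing ones 25.1 ± 7.68, later ones 23.1 ± 10.2 and mature ones 22.1 ± 7.16 CPM. Mature granule cells had 15.5, 23.7, 31.5 and 17.7 CPM, so each library was above all precursor libraries. All precursor levels, and the mature ones except that of the LPS male library, lay below those of empty droplets. In edgeR's quasi-likelihood test with the fetus as a block, mature cells exceeded precursors by 1.50 ± 0.20 on the log2 scale (SE; 95% interval 1.03 to 1.97), a 2.83-fold difference, higher in 4 of 4 libraries (adjusted p = 0.000311). THRB had 8.69, 4.99, 4.93 and 6.32 CPM in precursors and 5.64, 0.766, 4.75 and 1.86 in mature cells, a log2 difference of -0.55 (interval -1.42 to 0.32, adjusted p = 0.261).

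SLC16A10 encodes a transporter of aromatic amino acids that also carries thyroid hormone. It had 8.69, 10.8, 2.96 and 11.3 CPM in precursors, 2.9, 1.15, 3.67 and 3.08 CPM in migrating cells, and 19.8, 11.8, 18 and 19.7 CPM in later and 19.5, 19.1, 19.6 and 20.5 CPM in mature granule cells. The 4 mature libraries lay close together and above all precursor libraries. The difference between mature cells and precursors was 1.51 ± 0.27 on the log2 scale (interval 0.90 to 2.13, adjusted p = 0.00145, higher in 4 of 4 libraries). Migrating cells were lower than precursors in 3 of 4 libraries, the LPS male values resting on 3 and 4 UMIs, and this step was not tested.

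The plot of granule stages sets the members side by side.

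**Figure D2:**
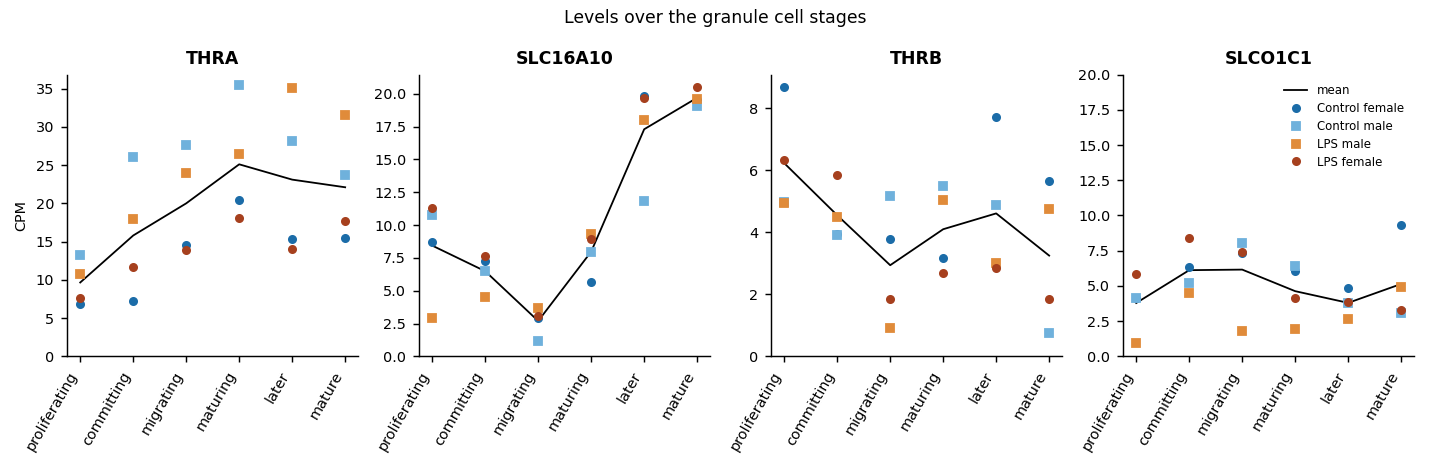
Level in CPM of 4 genes in 6 granule stages, from proliferating to mature. Points are the 4 libraries and the line joins their means, and each panel has its own linear axis from 0. SLC16A10 goes from a mean of 2.7 CPM in migrating to 19.7 CPM in mature cells, and THRA from 9.66 CPM in proliferating to 22.1 CPM in mature cells.

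Both members that passed the low-count filter and rose, THRA and SLC16A10, were 2 of 3 tested in that comparison, in which 28.7% of all 10946 genes were called. A call here needed an adjusted p under 0.05 and a log2 difference over 1. Scaling by library total alone moved the median of all genes by -0.31, and the split of calls from 1553 higher and 1590 lower to 1184 higher and 2272 lower. Both members kept their call under that scaling, each at a log2 difference of 1.19.

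SLCO1C1 encodes a transporter with high affinity for thyroxine, known from brain capillaries and astroglia. In Bergmann glia its level was 165, 219, 109 and 146 CPM, and in the other astrocytes 63.1, 83.2, 15 and 67.4 CPM. Proliferating glia had 72.8, 86, 49.9 and 99.7 CPM. The granule lineage had 6.14, 5.28, 3.31 and 5.23 CPM, below the 26.6, 36.6, 9.82 and 19.2 CPM of empty droplets. Bergmann glia exceeded other astrocytes in every library, and the LPS male library was the lowest in both.

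Between Bergmann glia and other astrocytes, SLCO1C1 differed by 1.53 ± 0.16 on the log2 scale (interval 1.19 to 1.87), 2.89-fold, higher in 4 of 4 libraries (edgeR, adjusted p = 5.28e-06). It was the 1 member called of 3 tested, against 5.81% of all genes. Without the fetus as a block its log2 difference was 1.51 and its adjusted p 0.113, and the calls over all genes went from 606 to 300. THRB was also higher in Bergmann glia in 4 of 4 libraries, by 0.67 ± 0.10 (adjusted p = 0.000295), which is under the log2 difference of 1 that a call needed. THRA differed by -0.28 (interval -0.61 to 0.06, adjusted p = 0.324).

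Against the granule lineage, astroglia had 4.84 ± 0.26 more THRB on the log2 scale (28.6-fold, interval 4.23 to 5.45, adjusted p = 5.89e-06) and 4.34 ± 0.11 more SLCO1C1 (20.3-fold, interval 4.08 to 4.60, adjusted p = 6.28e-07). SLC16A10 went the other way, with 1.83, 2.53, 3.54 and 4.27 CPM in astroglia and 11.4, 9.22, 13.8 and 11.8 CPM in the granule lineage. Its log2 difference was -2.01 ± 0.23 (adjusted p = 0.00022). THRA was higher in astroglia by 0.44 ± 0.11 in 4 of 4 libraries (adjusted p = 0.0107), under the size a call needed. In all, 4 of the 5 members were called, where 25.1% of all 13557 genes were. These include the sparse DIO2, which may have passed the low-count filter only through astroglia, where it is higher.

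In Purkinje cells against the granule lineage, THRB differed by 4.42 ± 0.27 on the log2 scale, 21.3-fold (interval 3.85 to 4.98, adjusted p = 8.47e-12). It was the 1 member called of 4 tested, against 26.9% of all genes. THRA differed by -0.17 (interval -0.90 to 0.55, adjusted p = 0.738), SLC16A10 by -0.76 (interval -1.85 to 0.33, adjusted p = 0.288) and SLCO1C1 by -0.04 (interval -1.34 to 1.26, adjusted p = 0.968). The last 2 rested on 10 and 8 UMIs in Purkinje cells.

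Between the oligodendrocyte stages, THRB was the 1 member that passed the low-count filter. Premyelinating and mature oligodendrocytes together had 62.7, 0, 14.4 and 28.4 CPM, and each was under the precursor value of its own library. The log2 difference was -2.10 ± 0.35 (interval -2.85 to -1.34, adjusted p = 0.000219), where 22.8% of all genes were called. Without the Control female library, THRB no longer passed the filter. Its UMIs by library were 49, 2, 15 and 33 in precursors and 25, 0, 6 and 8 in oligodendrocytes. It thus passed the filter mainly through precursors, where it is high, so the 1 call is of a selected member. THRA had 35.1, 40.8, 59.8 and 28.4 CPM in oligodendrocytes and 23, 30.7, 32.1 and 12 CPM in precursors, and was not tested.

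**Figure D3:**
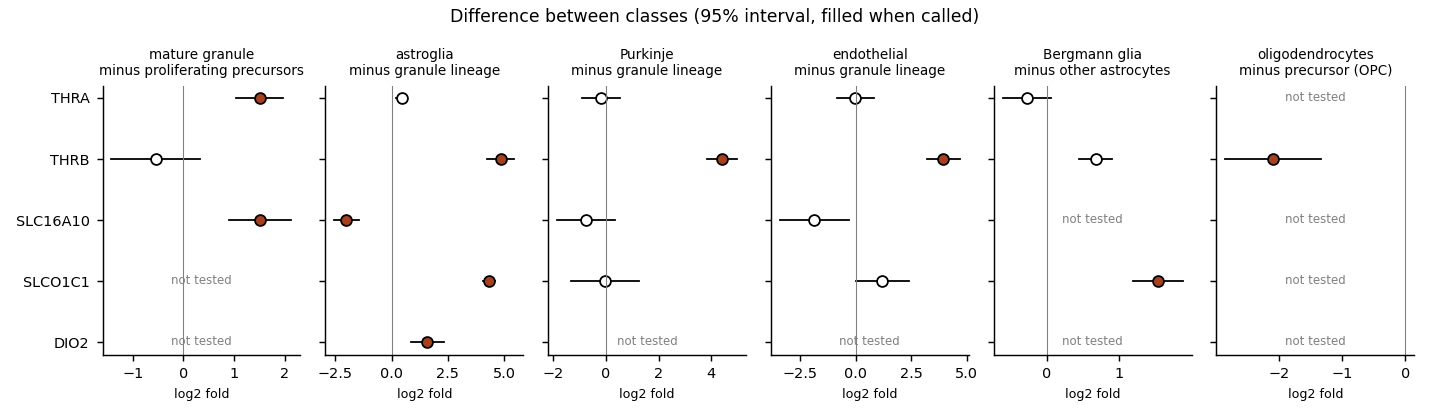
Log2 difference of each member between 2 classes, by edgeR with the fetus as a block. Horizontal lines are 95% intervals and filled points are calls, and members that did not pass the low-count filter are marked as not tested. THRB is called in 4 of the 6 panels, at 4.84, 4.42, 3.95 and -2.10.

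In endothelial cells THRB exceeded the granule lineage by 3.95 ± 0.36 on the log2 scale (interval 3.21 to 4.69, adjusted p = 5.33e-11), the 1 member called of 4 tested, against 27.7% of all genes. SLCO1C1 had 14.3, 5.12, 32.7 and 14.2 CPM there on 12 UMIs, and its log2 difference of 1.20 (interval -0.01 to 2.40) had an adjusted p of 0.124. This leaves out 33 nuclei of the same cluster with mural markers, set apart after the data were seen, which held 46 SLCO1C1 UMIs. SLC16A10 had 3 UMIs and differed by -1.88 (adjusted p = 0.0554). Endothelial cells fell into 2 sub-clusters, and the second had none of 8 endothelial markers raised over the other vascular nuclei of the re-clustering. It held 85 nuclei, 21 with doublet scores, and was led by genes such as LHFPL3 and RBFOX3 and had 647 CPM of the neuronal gene RBFOX3, against 46.6 in the first.

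THRB was 41 CPM (interval 25.7 to 62.1) in the first sub-cluster and 128 CPM (93.5 to 172) in the second, with the 4 libraries summed. The Control male library held 1 UMI of THRB in the first (10.2 CPM) and 20 in the second (206 CPM). The part of the second sub-cluster in the endothelial level was not tested beyond leaving it out. With the first sub-cluster alone, an alternative chosen after seeing the data, the difference from the granule lineage was 2.93 on the log2 scale (adjusted p = 4.12e-07). That of SLC16A10 was then -2.82 (adjusted p = 0.0457), that of SLCO1C1 0.89 (adjusted p = 0.417) and that of THRA -0.09 (adjusted p = 0.921).

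SLCO1C1 was higher in vascular nuclei with markers of mural cells, the pericytes and smooth muscle of vessels, than in endothelial nuclei without them. The mural cluster of 31 nuclei had 21 UMIs of SLCO1C1, 213 CPM (interval 132 to 326), with 36.6, 169, 84.5 and 421 CPM by library and 15 of the UMIs in the LPS female library. A further 33 nuclei carried markers of both vessel types, with 2650 CPM of the endothelial gene FLT1 and 392 CPM of the mural gene RGS5, and they had 152 CPM of SLCO1C1 (111 to 202), with 198, 0, 187 and 56.8 CPM by library. Without the Control female library, which held 34 of their 46 UMIs, the level was 90.9 CPM, and without the LPS female library the mural level was 95.4 CPM. The first and second endothelial sub-clusters had 11.2 CPM (4.1 to 24.3) and 17.1 CPM (6.27 to 37.2). The intervals of both groups with mural markers lay above those of both without. They cover counting error only, and the grouping was made after the data were seen. The 33 nuclei came from the endothelial cluster and had 619 CPM of the endothelial gene PECAM1, against 679 in endothelial cells. Their SLCO1C1 can therefore not be assigned to mural cells. The mural cluster held 1, 4, 1 and 15 UMIs by library. Its interval was 0.926 to 204 CPM in the Control female and 2.14 to 471 CPM in the LPS male library.

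**Figure D4:**
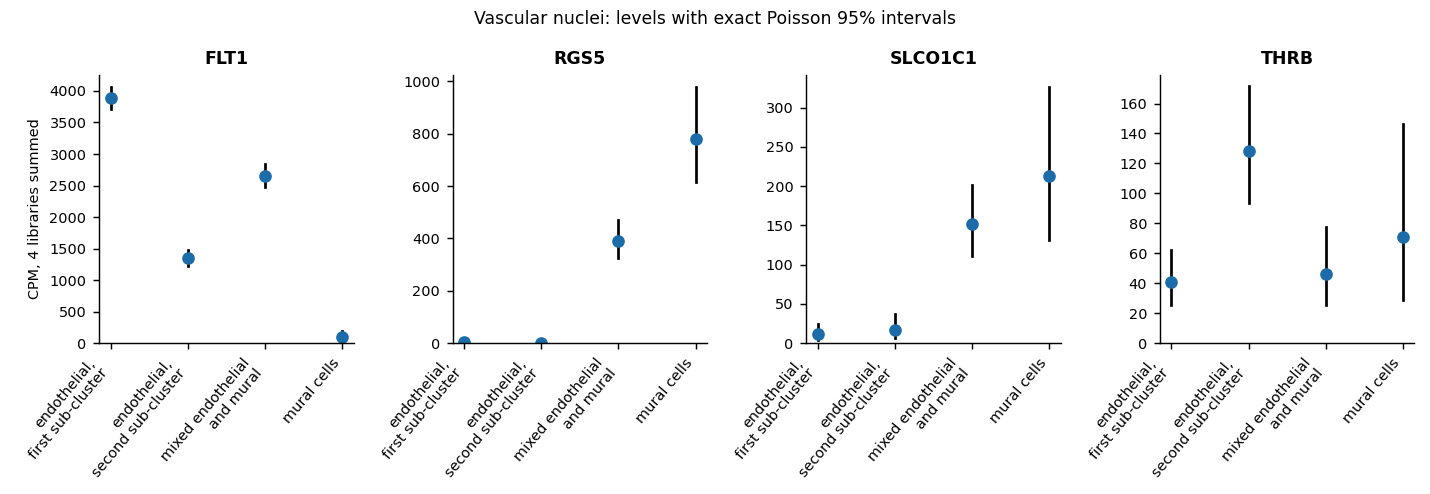
Level in CPM of FLT1 (endothelial), RGS5 (mural), SLCO1C1 and THRB in 4 groups of vascular nuclei, libraries summed, with exact 95% Poisson intervals. SLCO1C1 is at 11.2 and 17.1 CPM in the endothelial sub-clusters and at 152 and 213 CPM in the groups with RGS5.

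The endothelium did hold other transporters. Of the related list, 4 of 5 transporters tested were higher in endothelial cells than in the granule lineage, where 27.7% of all genes were called in either direction, among them SLCO1A2, SLC7A8 and SLC3A2. SLCO1A2, an organic anion transporter of the blood-brain barrier, had 438, 460, 376 and 593 CPM in endothelial cells and 2.94, 1.93, 1.03 and 3.55 CPM in the granule lineage, with no overlap and a 172-fold difference (log2 7.42 ± 0.24, adjusted p = 1.47e-22). The amino acid transporter SLC7A8 was 25.1-fold higher (log2 4.65 ± 0.32, adjusted p = 3.83e-14) and its partner chain SLC3A2 3.33-fold (log2 1.74 ± 0.37, adjusted p = 0.000276).

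Outside the granule lineage and vessels, SLC16A10 was highest in small classes. Choroid or ependymal cells had 156, 109, 0 and 123 CPM on 17 UMIs, and microglia, the resident immune cells of the brain, 35.9, 28, 5.4 and 52.7 CPM on 33 UMIs. The LPS male library was the lowest in both. In fibroblasts there were 0 UMIs, which allows a level of up to 1.39 CPM. In the order of mean SLC16A10, Bergmann glia and fibroblasts, the next class down, were the only neighbours whose libraries did not overlap, and for THRA, THRB and SLCO1C1 all neighbours overlapped. The granule lineage held a mean of 77.1% of the SLC16A10 UMIs of a library and 64.2% of all UMIs.

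DIO2, which makes triiodothyronine, was sparse, with 150 UMIs in all nuclei, 57 of which free RNA was expected to give. Bergmann glia held 28 of them, 16, 2, 2 and 8 by library, against 2.44 expected from free RNA. Their level was 6.03, 1.8, 2.04 and 4.89 CPM, and both female libraries were higher than both male ones. The granule lineage had 0.711, 0.335, 1.4 and 1.2 CPM. Both the granule and the astroglial level lay in every library below the 6.48, 2.36, 7.49 and 3.85 CPM of empty droplets, and the Bergmann level did in 3 of 4. Free RNA was expected to give 36.8 of the 70 granule UMIs and 5.08 of the 36 in astroglia. Over all astroglia, DIO2 was 3.1, 1.44, 3.54 and 2.44 CPM, above every granule library, and exceeded the granule lineage by 1.59 ± 0.32 on the log2 scale (interval 0.84 to 2.34, adjusted p = 0.00432, higher in 4 of 4 libraries). Without the fetus as a block the log2 difference was 1.50 and the adjusted p 0.0646. At these levels DIO2 may have passed the low-count filter only through astroglia, so its being tested and its direction are not independent. No DIO2 UMI was found in Purkinje cells, which allows up to 1.87 CPM, in endothelial cells, up to 3.38 CPM, or in oligodendrocyte precursor cells, up to 4.32 CPM.

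The related list held 40 genes of the pathway, 38 with a row: other transporters, enzymes, receptor partners and coregulators, genes known to respond to the hormone, and genes that overlap a member. Between mature granule cells and precursors, 6 of its 28 tested genes were higher and 3 lower, near the 28.7% of all genes called, with a median log2 difference of 0.22 against 0.0 over all genes. The higher ones included RELN, a secreted guidance protein (3.09 ± 0.35, adjusted p = 0.000101), CAMK4, a calcium-dependent kinase (3.13 ± 0.19, adjusted p = 3.18e-06), and SLC7A8 (3.13 ± 0.31, adjusted p = 4.76e-05). Also higher were NTF3, a neurotrophin (2.24), and SLCO4A1, a transporter (1.59). The lower ones included SEMA7A, a semaphorin (-3.06), and RXRA, a retinoid X receptor and dimer partner of the receptors. RXRA had 12.5, 34.1, 7.88 and 9.92 CPM in precursors and 0.564, 3.83, 1.58 and 0 CPM in mature cells, with no overlap and a log2 difference of -3.11 ± 0.45 (adjusted p = 0.000437). The split of 6 to 3 became 5 to 7 when libraries were scaled by total alone.

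Between astroglia and the granule lineage, 2 of 30 listed genes were higher and 4 lower, where 25.1% of all genes were called, with a median of -0.07 against -0.06 over all genes. RXRA was 3.90-fold higher in astroglia (log2 1.96 ± 0.26, adjusted p = 0.000462), with 12.8, 39.7, 28.3 and 14.6 CPM there, and SLCO1A2 3.11-fold higher (log2 1.64). RELN, NTF3, SEMA7A and SLCO4A1 were lower. Between Bergmann glia and other astrocytes none of 25 was called, where 5.81% of all genes were, with a median of 0.04 against 0.01.

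In Purkinje cells, 8 of 33 listed genes were higher than in the granule lineage and 5 lower, where 26.9% of all genes were called, with a median of -0.09 against -0.15. Of the 12 hormone-responsive genes tested, 5 were higher: SHH, the mitogen of granule precursors (7.14 ± 0.55), PCP2, a Purkinje cell protein (5.63 ± 0.33), NRGN (5.05 ± 0.51), NEFH, a neurofilament (4.40 ± 0.65), and RORA, a nuclear receptor of Purkinje cells (2.66 ± 0.35). RELN and NTF3 were lower, by log2 differences of -4.06 ± 0.38 and -4.56 ± 0.38. The low-count filter passed 12 of 13 hormone-responsive genes here, against 9 in the astroglial and the endothelial comparison. Some may have passed only through Purkinje cells, where they are high, so their being higher is no separate result. A response to the hormone was not tested. The other 3 higher genes were SLC7A8 (1.92), SLC3A2 (1.29) and the corepressor subunit TBL1X (1.10), and the other lower ones included TBL1XR1 (-1.46) and SECISBP2 (-1.12), which is needed to make selenoproteins such as the deiodinases. In endothelial cells 5 of 30 were higher and 4 lower, where 27.7% of all genes were called, the higher ones including TBL1X (2.12) and the lower ones being RELN, CAMK4, NTF3 and STRBP, with a median of 0.08 against -0.19. Between oligodendrocytes and precursors, 2 of 14 were lower, RORA (-1.71) and the coactivator NCOA3 (-1.16), and none was higher. Of all genes, 22.8% were called there in either direction, and the median was -0.27 against -0.06.

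The comparison of LPS with Control asked whether these genes differed after intra-amniotic LPS, with 2 fetuses per group. At an adjusted p under 0.1 and a log2 difference over 0.25, edgeR called 0 of 14904 genes in the granule lineage, 0 of 11918 in astroglia and 0 of 8089 in the oligodendrocyte lineage, 0% in each, and so none of the members. At an unadjusted p under 0.05 there were 28, 38 and 82 genes, and DESeq2 called 0, 0 and 1. The adjusted p of every member tested was 1.

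In the granule lineage, the LPS minus Control log2 difference was 0.02 for THRA (95% interval -1.24 to 1.29), -0.43 for THRB (-1.70 to 0.83) and 0.30 for SLC16A10 (-0.66 to 1.27). It was -0.43 for SLCO1C1 (-1.72 to 0.87) and 1.24 for DIO2 (-0.89 to 3.37). These intervals hold differences of more than 1 in at least 1 direction, so with this number of fetuses a change of that size could not be told from none. The levels of the groups did not overlap for 4 of the 5, all but THRA, where 12.2% of all genes tested did not overlap. THRB and SLCO1C1 were lower, and SLC16A10 and DIO2 higher, in both LPS libraries. The values of THRB, SLCO1C1 and DIO2 lie below those of empty droplets in every library, and with free RNA subtracted the groups overlapped for all 3. THRB was then 4.98, 0.931, 0.437 and 3.2 CPM, SLCO1C1 4.67, 1.77, 2.1 and 4.42 CPM, and DIO2 0.311, 0.0931, 0.262 and 1.07 CPM. SLC16A10 alone of the 4 stayed higher in both LPS libraries, at 13.5 and 12.1 CPM against 11.7 and 9.4. Without subtraction, the log2 difference of SLC16A10 was 0.05 between females and 0.58 between males, so the females barely differed. The make-up of the lineage differed, mature granule cells being 670 of 6832, 582 of 6076, 1510 of 4381 and 434 of 5128 nuclei, and the part of this in the lineage values was not tested. Within stages and without subtraction, SLC16A10 was higher in both LPS libraries in migrating, maturing and mature cells, the mature values lying close together. The groups overlapped in the other 3 stages. In migrating cells the LPS male value rested on 4 UMIs, where free RNA was expected to give 3.11. In maturing cells the LPS male library had 24 UMIs and the Control male library 26, where 7.6 and 2.91 were expected. The share of all genes that did not overlap within stages was not counted.

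In astroglia, SLC16A10 was higher in both LPS libraries and SLCO1C1 lower, 2 of 4 members tested, where 15.8% of all genes did not overlap. SLCO1C1 differed by -0.54 (interval -1.50 to 0.41), but within sexes by -1.16 for males and -0.08 for females, the LPS male library being the lowest of the 4. SLC16A10 differed by 0.87 (-0.92 to 2.65) on 38 UMIs, by 1.22 between females and 0.48 between males. With free RNA subtracted it was 1.53, 1.95, 1.2 and 4.14 CPM, so the groups overlapped, while SLCO1C1 at 117, 146, 71.5 and 111 CPM stayed lower in both LPS libraries. THRB differed by 0.08 (-1.45 to 1.61), with -0.18 between females and 0.76 between males, and THRA by 0.06 (-1.12 to 1.25). In the oligodendrocyte lineage neither of 2 members was separated by group, where 21.4% of all genes were. THRA differed by 0.15 (-1.14 to 1.44) and THRB by -0.26 (-1.89 to 1.36). Without the LPS male library THRA was -0.67 and THRB 0.26, and without the Control female library THRB was 1.73. Mature oligodendrocytes were 13 of 126, 5 of 97, 58 of 158 and 8 of 87 nuclei of the lineage. The lineage also held 2 unnamed sub-clusters. The first, of 43 nuclei (8, 8, 21 and 6 by library), had 0 of 7 precursor markers raised. It was led by genes such as NYAP2 and TRPC7, and TRPC7 also led the later granule cells. The second, of 39 nuclei (11, 9, 9 and 10), was led by genes such as TOP2A. The part of this make-up in the differences was not tested.

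**Figure D5:**
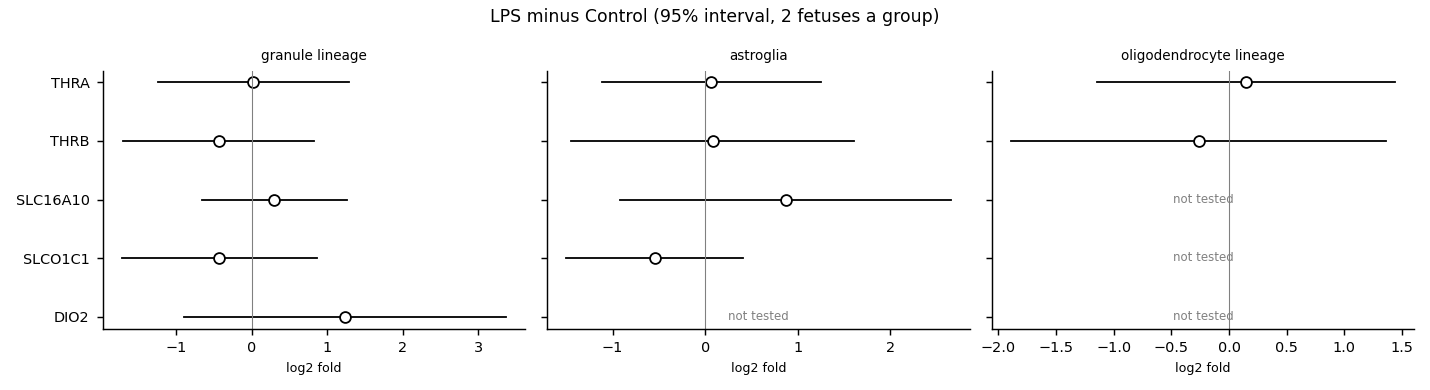
LPS minus Control log2 difference of each member tested in 3 lineages, by edgeR with 2 fetuses per group, with 95% intervals. Every interval holds 0, and in the granule lineage the differences run from -0.43 for THRB and SLCO1C1 to 1.24 for DIO2.

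The difference of LPS effects between astroglia and the granule lineage, tested as an interaction, called 0 of 14535 genes. It was 0.61 for THRB, 0.64 for SLC16A10, -0.14 for SLCO1C1, -0.02 for THRA and -0.95 for DIO2, each with an adjusted p of 1. Of the related list none of 33, 28 and 22 genes tested in the 3 lineages was called, with median differences of -0.02, 0.00 and -0.02 against 0.01 over all genes, and 3, 5 and 2 of them did not overlap between groups, where 12.2, 15.8 and 21.4% of all genes did not.

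The genes whose levels ran most like each member over the 22 classes were found by Pearson's r of log2 class means, over classes that share libraries and depth. For THRB they were ARHGEF3 (r = 0.809), TGFB2 (0.806) and MSRB3 (0.795), and for SLCO1C1 GPC4 (0.854), TESC (0.847) and CYP4F12 (0.847). For THRA they were TNS1 (0.782), DAPK2 (0.776) and a gene listed only by identifier (0.765), and for SLC16A10 3 genes listed only by identifier (0.892, 0.861 and 0.861). For DIO2 they were TOGARAM2 (0.932), EFHC2 (0.931) and FAM167A (0.923), but its profile rests on 3 UMIs in choroid or ependymal cells.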

How the data were processed

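Single-nucleus RNA sequencing was analysed from the cerebellum of 4 fetuses, 2 Control and 2 LPS, each fetus being 1 replicate. The authors deposited raw UMI counts per gene and barcode, with every barcode listed and no filter. Reads were aligned to Mmul_8.0.1 with introns included. The file headers and the submitters' processing notes name Cell Ranger 4, while the study's methods name a later version. Barcode and gene lists hold other, text, values as deposited by the authors. The members and lists were chosen with earlier results of these data known.

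Barcodes with at least 500 genes were kept. They were integrated and clustered with Seurat 5.3.0 (2000 features, 30 dimensions, resolution 0.5), leaving the members and related genes out of the features. A cluster was named for the marker list with the highest mean log2 fold where this passed 0.4 and at least 3 markers were raised. It stayed unnamed where its median UMIs relative to those of the libraries were under 1/3 and none of its 10 leading genes was a marker of that list, which left 1 cluster of 2393 nuclei unnamed (ratio 0.316). A further cluster, of 768 nuclei, stayed unnamed at a mean log2 fold of 0.306. So did 2 oligodendrocyte sub-clusters of 43 and 39 nuclei, at -0.673 and 0.26. The second endothelial sub-cluster met neither the fold nor the marker limit within its re-clustering. It kept the name of its parent cluster, which met both. Those limits, the division of cycling clusters between granule cells and glia by the higher lineage list, and the setting apart of nuclei with endothelial and mural markers were chosen after the data were seen. Doublet calls (5.52 to 7.4% of barcodes) were left in and removed as an alternative.

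UMIs were summed per library and class and tested with edgeR 4.0.16 (quasi-likelihood test, filterByExpr, TMM, Benjamini-Hochberg over all genes tested), checked on simulated data. Class comparisons had the fetus as a block and were called at an adjusted p under 0.05 and a log2 difference over 1, LPS comparisons at 0.1 and 0.25. DESeq2 1.42.0, scaling by total, no filter, other barcode limits, free RNA subtraction, leaving out each library and blocks were alternatives. Named genes were the members and the called genes of the related list, some of which are not reported here. Free RNA was read from empty droplets, barcodes ranked after 3 and up to 4 times the number of nuclei, and expected free UMIs from their composition and depth. Limits for a count of 0 are 3 counts. Intervals of single levels cover counting error only. Gene likeness used log2 of CPM + 10 over genes reaching 20 CPM in a class.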

Additional observations from a re-analysis of the deposited data

Results flagged for a closer look

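In endothelial cells the Control male library had 107 CPM of THRB, while the other 3 lay between 65.3 and 67.5, a gap of 0.949 of the whole range. Of its UMIs, 20 lay in the second endothelial sub-cluster (206 CPM) and 1 in the first, where it was the lowest library (10.2 CPM against 40.4 to 56.5). In migrating granule cells the LPS male library had 1.83 CPM of SLCO1C1, on 2 UMIs where free RNA was expected to give 2.04. The others had 7.36 to 8.06 CPM, a gap of 0.887. Both were marked for 1 library far from the others, and chance marks about 1 in 20 groups, so 2 of the 63 levels examined is no more than chance gives. THRB was also marked because the LPS minus Control log2 difference was positive in fibroblasts (0.42) and negative in the granule lineage, in later granule cells, which are part of it, and in Purkinje cells, with the groups not overlapping in each. Only classes with at least 10 nuclei in each library and 100 UMIs of THRB were compared in this way. Fibroblasts differed by 1.53 from later granule cells (-1.11), by 0.80 from Purkinje cells (-0.38) and by 0.84 from the granule lineage (-0.42). These differences between classes were not tested. With free RNA subtracted, the THRB groups overlapped in the granule lineage, at 4.98, 0.931, 0.437 and 3.2 CPM. In later granule cells the LPS male library had 9 THRB UMIs, where free RNA was expected to give 9.87. The Control male library had 14 there, where 9.17 were expected. Of all genes tested in the granule lineage, 12.2% did not overlap between groups, and no such share was counted for the other classes.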

How the results depend on the processing

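Of the member differences, 337 values kept direction and side of the threshold under an alternative, 25 turned direction, 3 gained and 2 lost a call. None of those that turned was called. LPS minus Control, THRA became -0.30 and -0.54 without the Control female or LPS male library and -0.01 with sex as a block in the granule lineage, with a range of -0.54 to 0.46 over libraries left out. In astroglia THRA became -0.09 and -0.60 without the same libraries, -0.01 with at least 1000 genes and -0.02 with the sex block, and THRB -0.55 and -0.34 without the Control male or LPS female library, with ranges of -0.60 to 0.51 and -0.55 to 1.21. In the oligodendrocyte lineage THRA became -0.67 without the LPS male library and 0.00 with the sex block, and THRB 1.73 and 0.26 without the Control female or LPS male library, with ranges of -0.67 to 0.61 and -1.07 to 1.73. SLCO1C1 in Purkinje cells became 0.10 with at least 1000 genes, 0.44 with free RNA subtracted, 0.05 without the fetus block, and 0.03, 0.20 and 0.06 without the Control female, Control male or LPS male library (range -0.58 to 0.20). THRA in endothelial cells became 0.15 with scaling by total, 0.03 with at least 1000 genes, 0.03 at most 5% mitochondrial UMIs, 0.07 without doublets, 0.05 with free RNA subtracted and 0.21 without the Control male library (range -0.16 to 0.21). The cause was not tested. The 2 lost calls came without the fetus block, DIO2 in astroglia and SLCO1C1 in Bergmann glia. SLC16A10 in endothelial cells, not called in the report, was called with no filter, without the LPS male library (-2.38) and with the first sub-cluster alone (-2.82). Of the related list, 458 values stayed the same and 19 lost a call. NCOA3 in oligodendrocytes lost it in 3 of 12 alternatives (adjusted p up to 0.114). SLC3A2 and STRBP in endothelial cells lost it in 2 of 13 each, and TBL1X in Purkinje cells in 2 of 12. SECISBP2 in Purkinje cells and SLCO1A2 in astroglia lost it in 1 of 12 each.

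LPS calls over all genes in astroglia went from 0 to 13 with no filter and 0 to 3 with a library left out. In the oligodendrocyte lineage they went from 0 to 1 with DESeq2, 9 with no filter, 10 with the sex block and 5 to 17 with a library left out. Bergmann glia against astrocytes had 300 calls without the fetus block. Of the levels, 432 moved by less than 1 SD and 8 by more. Small classes and 2 fetuses per group limit what these data can show. The labels number no replicates across groups. No paired analysis was possible because the replicate numbers used here follow the listing order and pair no fetuses, and the sex block stands in its place.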

Other observations

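In the astroglia, NR1D1, which lies across THRA on the other strand, had 6.03, 0.722, 4.04 and 9.75 CPM in the Control female, Control male, LPS male and LPS female libraries, while THRA had 23.2, 33.9, 42.4 and 18 CPM. The low-UMI nuclei that stayed unnamed held 21 DIO2 UMIs, at 4.05, 0, 12.4 and 7.1 CPM, where 7.74 UMIs were expected from free RNA.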
